A study of Homo sapiens with 2 samples.

Results

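The genes described here encode the 4 ID proteins and 6 proteins that carry or restrain signals of bone morphogenetic proteins (BMPs). They were taken as the rows of both deposited transcript tables whose gene symbol was ID1, ID2, ID3, ID4, BMP4, BMP7, BMPR1A, SMAD6, SMAD7 or BAMBI, which gave 10 of 25240 genes and 18 of 37839 transcripts. The 10 were picked with their values in these libraries in view, so their levels are a description. The libraries came from T47D, an established human breast cancer line of luminal type with receptors for estrogen and progesterone. The control library (shNT) was made from T47D transduced with a hairpin that targets no gene, and the other (shRON) from T47D that received a RON hairpin, which targets the receptor tyrosine kinase encoded by MST1R. Both cultures were selected in puromycin at 5 ug/mL, held at 1 ug/mL and grown in high-glucose DMEM with 10% serum, and both gave total RNA for TruSeq libraries. The control table's name describes wild-type cells, but its label was followed. The labels name no other RON hairpin, and the sources used here do not say whether the cells were pools or clones. There was 1 library per group, so no test between conditions was possible and every difference is one between these libraries.

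BMPs are secreted ligands of the TGF-beta superfamily. They bind type I and type II serine/threonine kinase receptors, which phosphorylate SMAD1, SMAD5 and SMAD9, and these enter the nucleus with SMAD4. The ID genes are among the best known direct targets of this route. ID proteins have a helix-loop-helix region but no basic region, so they pair with basic helix-loop-helix (bHLH) transcription factors and keep them off DNA. The inhibitory SMADs, SMAD6 and SMAD7, and the pseudoreceptor BAMBI, which lacks a kinase domain, are also induced by the pathway and dampen it.

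ID1, ID2 and ID3 were higher by more than 2-fold, while SMAD6, SMAD7 and BAMBI, known targets of the same route, were not. For these genes except SMAD7, a stretch upstream of the start is shown. Letters that SMAD proteins are known to bind are marked. The window was the 1500 bases before the start of the most abundant transcript in GRCh37, the build hg19 of the tables, and letters were searched on both strands. Capitals mark GGCGCC, a GC-rich SMAD motif, GTCTAGAC, the SMAD palindrome, or a bipartite element made of GGCGNC or GACGNC, 5 bases of any kind and GTCT. The GC-rich part of the bipartite element can overlap GGCGCC. Each line runs 5′ to 3′ on the strand of the gene.
ID1, chr20:30192112-30192206, plus strand: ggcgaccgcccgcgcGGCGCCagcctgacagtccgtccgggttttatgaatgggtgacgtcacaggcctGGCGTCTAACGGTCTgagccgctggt
ID3, chr1:23886472-23886522, minus strand: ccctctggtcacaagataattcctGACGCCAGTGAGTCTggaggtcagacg
ID2, chr2:8821763-8821798, plus strand: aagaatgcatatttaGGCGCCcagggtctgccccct
SMAD6, chr15:66994544-66994584, plus strand: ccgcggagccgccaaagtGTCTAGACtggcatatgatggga
BAMBI, chr10:28966229-28966284, plus strand: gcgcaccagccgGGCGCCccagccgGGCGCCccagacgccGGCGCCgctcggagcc

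The bipartite element was found in the windows of 2 of the 10 genes, ID1 and ID3, and in 115 of 10069 windows of measured genes whose strand could be read from GENCODE (1.14%). In ID1 it begins 911 bases before the start and reads GGCGTCTAACGGTCT. A noncoding gene on the other strand is annotated over at least part of that window. In ID3 it begins 176 bases before the start and reads GACGCCAGTGAGTCT, with no other gene annotated over the window. The ID3 start used is base 23886322, while GENCODE places it at 23885992, so distances in ID3 depend on the annotation. The GC-rich motif GGCGCC was in the windows of 7 of the 10 genes, against 48.9% of all such windows. The 7 were ID1, ID2, ID4, BMPR1A, SMAD6, SMAD7 and BAMBI. In SMAD7, whose stretch is not shown, it begins 71, 1035, 1183 and 1245 bases before the start. In ID2 it begins 335 bases before the start. The ID2 window lies inside the gene as GENCODE annotates it, from base 8818975. The noncoding gene ID2-AS1, on the other strand, is annotated over at least part of that window. The palindrome GTCTAGAC was in the window of SMAD6 alone among the 10, beginning 112 bases before the start, and in 0.854% of all windows. Within 250 bases of the start, GGCGCC was held by 3 of the 10 genes, BMPR1A, SMAD7 and BAMBI, against 2521 of 10069 windows. No ID gene was among the 3. Over the same 250 bases, a CCAAT box was held by 6 of the 10 genes, the 4 ID genes, SMAD6 and BAMBI, against 34.4% of windows. ID1 and ID4 held TATAAA there, against 5.0%. Over the whole 1500 bases, the CCAAT box was held by 7 of the 10 genes, against 83.8% of windows. TATAAA was held by 5 of the 10 over that length, against 49.7%. The motifs and the 10 genes were chosen with earlier results of these data known, so these counts are not read against the shares. These matches are letters in a window, and no binding was measured in these libraries. The part of these letters in the differences between the libraries was not tested.

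Values are FPKM, fragments per kilobase of transcript, scaled to the library's fragments, summed over the transcripts of a gene. The libraries held an estimated 12189000 fragments in shNT and 11643000 in shRON. A gene was called measured at 1 FPKM or more in at least 1 library, which 12482 genes reached. MST1R, the hairpin's target, gave 12.1 FPKM in the control and 9.10 FPKM in shRON, a ratio of 0.749. It was lower in the library labelled for its knockdown, but by less than 1.5-fold. All 8 luminal epithelial markers listed were measured in both libraries, and their sum was lower in shRON, 8618 FPKM in the control and 6416 FPKM in shRON. The ratio of shRON to control was 0.458 for PGR, 0.646 for ESR1, 0.686 for KRT8, 0.759 for KRT18 and 0.765 for KRT19. EPCAM was at 115 and 119 FPKM and FOXA1 at 143 and 144 FPKM. GATA3 went the other way, at 223 FPKM in the control and 269 FPKM in shRON, a ratio of 1.21. The part of these luminal differences, and of the marker differences that follow, in the values of the 10 genes was not tested. Of the immune markers 1 of 7 was measured, CD68, at 1.37 FPKM in the control and 5.84 FPKM in shRON, the list summed to 1.83 and 6.85 FPKM, and PTPRC, CD3E, LYZ and TYROBP were listed at 0 in both. Of the fibroblast markers 2 of 7 were measured (sums 4.27 and 5.88 FPKM, with PDGFRB at 0 in both). They were COL1A1 (3.95 and 4.27 FPKM) and COL3A1, measured through shRON only (0.0103 and 1.53 FPKM). Measured were, of the endothelial markers 1 of 6 (7.22 and 7.66 FPKM, with PECAM1, VWF, KDR and TEK at 0 in both) and of the muscle markers 1 of 3 (7.32 and 6.26 FPKM, with DES at 0 in both).

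ID1, ID2 and ID3 were each between 2.56 and 2.80 times as high in shRON as in shNT. ID1, which lies on chromosome 20 from 30193092 to 30194313, was at 6.09 FPKM in the control and 16.8 FPKM in shRON. That is a ratio of 2.76, and counting error alone gave an approximate 95% interval of 2.17 to 3.54. ID2, on chromosome 2 from 8822113 to 8824583, was at 12.9 FPKM in the control and 32.97 FPKM in shRON. Its ratio was 2.56 (2.22 to 2.96). ID3, at bases 23884409 to 23886322 of chromosome 1 on the minus strand, was at 10.8 FPKM in the control and 30.2 FPKM in shRON, a ratio of 2.80 (2.38 to 3.30). All 3 are protein-coding, and the shRON value lay above the counting interval of the shNT value for each. These intervals rest on estimated fragments (94 and 251 for ID1, 273 and 669 for ID2, 204 and 570 for ID3) and cover counting error only. They do not cover the difference between cultures, and reads without molecular identifiers are not independent molecules. In bulk RNA, more expressing cells and more RNA per cell cannot be told apart. The processed pseudogene of ID2 in the tables, ID2B, was listed at 0 in both libraries.

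ID4, the fourth of the family, was near the detection limit. It lies on chromosome 6 from 19837617 to 19840915 and was at 0.769 FPKM in the control and 1.85 FPKM in shRON. With only 29 and 64 estimated fragments, its ratio of 2.41 had a wide interval of 1.53 to 3.87. ID4 counts as measured only through shRON. The noncoding gene LNC-LBCS overlaps it on the other strand, and the sources used here do not say whether reads kept their strand, so reads of the pair may be mixed.

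The 4 ID genes kept nearly the same proportions of their sum. The sum was 30.5 FPKM in the control and 81.9 FPKM in shRON, 2.68 times as high. ID2 made up 42.2% of it in shNT and 40.3% in shRON, ID3 35.3% and 36.9%, ID1 19.95% and 20.6%, and ID4 2.52% and 2.26%. The order ID2, ID3, ID1, ID4 was the same in both libraries. The counting intervals of ID2 and ID3 overlapped in each library, so their order was not resolved. Those of ID1 and ID3 did not overlap in either.

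On the log2 scale of FPKM + 1, which understates the ratio of low genes, ID3 was at 1.40, ID1 at 1.33, ID2 at 1.29 and ID4 at 0.69. Ratios higher than that of ID3 were found in 193 of the 12482 measured genes, higher than that of ID1 in 212 and higher than that of ID2 in 241. By a rule of size of 2-fold on this scale, 3 of the 10 genes were higher in shRON, ID1, ID2 and ID3, and 0 were lower. Among all measured genes 3.32% were higher and 2.17% lower by that size. The 10 genes were chosen on this contrast, so their count is not read against those shares.

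**Figure D1:**
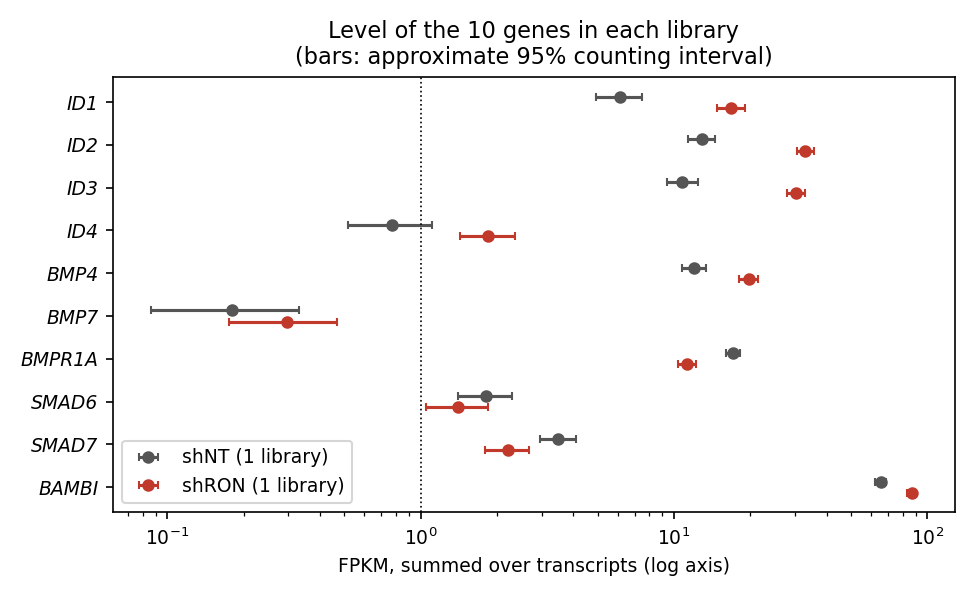
FPKM of each of the 10 genes in shNT (grey) and shRON (red) on a log axis, 1 library each, with approximate 95% counting intervals; the dotted line is 1 FPKM. The intervals of ID1, ID2 and ID3 lie apart, from 6.09 to 16.8, 12.9 to 32.97 and 10.8 to 30.2 FPKM, while those of BMP7 and SMAD6 overlap.

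**Figure D2:**
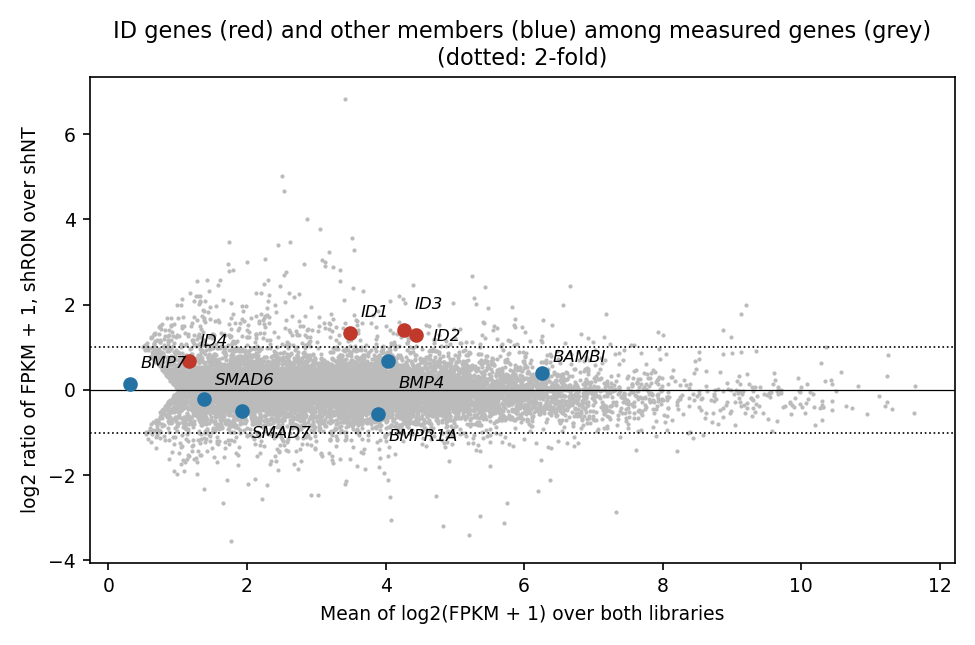
Log2 ratio of FPKM + 1, shRON over shNT, against the mean log2 level, for all 12482 measured genes (grey), the ID genes (red) and the other 6 genes (blue, BMP7 included although it is under 1 FPKM); dotted lines mark 2-fold. ID1, ID2 and ID3 lie between 1.29 and 1.40, above the upper line, and no member lies below the lower one.

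Of the ligands, BMP4 was the only one measured. BMP4, a ligand of the type I receptors BMPR1A and BMPR1B, occupies bases 54416454 to 54423554 of chromosome 14, minus strand. It was at 12.0 FPKM in the control and 19.7 FPKM in shRON, a ratio of 1.64 (1.43 to 1.89) and a log2 ratio of 0.67. A noncoding gene overlaps it on the other strand, so part of its reads may belong elsewhere. BMP7, a ligand that also signals through ACVR1, was at 0.180 FPKM in the control and 0.296 FPKM in shRON, from an estimated 10 and 18 fragments, and its ratio of 1.65 had an interval of 0.720 to 3.99. A difference of BMP7 was not detectable at this depth. Of the 14 BMP and related ligand genes listed, 13 were under 1 FPKM in both libraries. BMP8B (0.957 and 0.584 FPKM) and BMP8A (0.696 and 0.426 FPKM), with shNT given before shRON, came closest, and BMP2 was listed at 0 in both.

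The higher value of BMP4 came from 1 of its transcripts. NM_001202.3 was at 5.78 FPKM in the control and 14.4 FPKM in shRON, and NM_130850.2 at 6.24 FPKM in the control and 5.34 FPKM in shRON. NM_001202.3 thus held 48.1% of BMP4 FPKM in shNT and 72.9% in shRON. Both transcripts span the same bases and differ by 1942 against 1733 bases of exon, so the split is an estimate from the reads that tell them apart. The third transcript, NM_130851.2, with a start inside the gene, was close to 0 in both.

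ID1 also has more than 1 transcript, and here both were higher. The spliced NM_002165.2 was at 5.68 FPKM in the control and 14.5 FPKM in shRON. NM_181353.1, whose length of 1222 bases equals its span on the genome and so keeps the 239 bases that the other removes, was at 0.417 FPKM in the control and 2.36 FPKM in shRON. Of the estimated ID1 fragments, 8.37% (3.75 to 16.1%, Clopper-Pearson) in shNT and 16.8% (12.3 to 21.9%) in shRON were assigned to this unspliced form, and the intervals overlap.

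**Figure D3:**
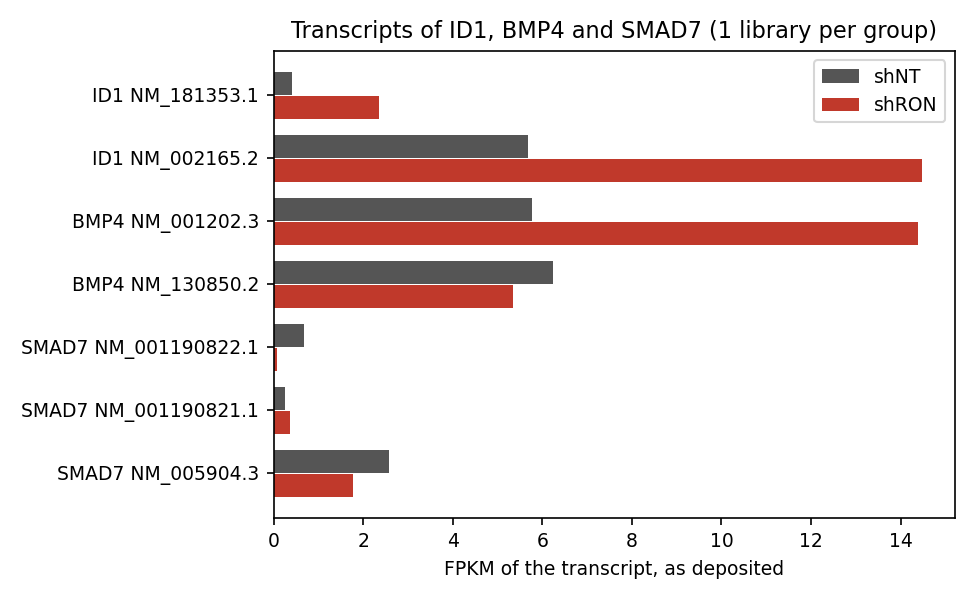
FPKM of each transcript of ID1, BMP4 and SMAD7 in shNT (grey) and shRON (red), as deposited, 1 library each; transcripts under 0.01 FPKM in both are left out. Both ID1 transcripts are higher in shRON, while in BMP4 NM_001202.3 goes from 5.78 to 14.4 FPKM and NM_130850.2 from 6.24 to 5.34 FPKM.

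The receptor gene BMPR1A was lower in shRON. BMPR1A, a type I receptor that binds BMP4, lies on chromosome 10 from 88516396 to 88684945 and was at 17.1 FPKM in the control and 11.3 FPKM in shRON. The ratio was 0.661 (0.596 to 0.733) and the log2 ratio -0.56, and the intervals of the libraries did not overlap. GENCODE annotates processed pseudogenes of BMPR1A on other chromosomes, so some reads may be shared with them. The related type I receptor gene BMPR1B stayed under 1 FPKM, at 0.389 FPKM in the control and 0.119 FPKM in shRON. BMPR2, the type II receptor for BMPs, was at 5.90 FPKM in the control and 8.76 FPKM in shRON (log2 ratio 0.50). ACVR1, another type I receptor, was at 3.34 and 4.94 FPKM in the same order (0.45).

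Among the inhibitors the directions differed. SMAD7, which blocks type I receptors and recruits ubiquitin ligases to them, occupies bases 46446223 to 46477081 of chromosome 18, minus strand. It was at 3.49 FPKM in the control and 2.20 FPKM in shRON, a ratio of 0.631 (0.484 to 0.818) and a log2 ratio of -0.49. Its main transcript, NM_005904.3, was at 2.56 FPKM in the control and 1.77 FPKM in shRON, and the shorter NM_001190822.1 at 0.669 and 0.0751 FPKM, from an estimated 23 and 3 fragments. SMAD6, which acts mainly on BMP receptors and SMAD1, lies on chromosome 15 from 66994674 to 67074338 and was at 1.81 FPKM in the control and 1.41 FPKM in shRON. Its ratio of 0.779 had an interval of 0.533 to 1.13, so a difference was not detectable at this depth. BAMBI, on chromosome 10 from 28966424 to 28971868, was the most abundant of the 10 genes per length, at 65.4 FPKM in the control and 86.9 FPKM in shRON. Its ratio was 1.33 (1.25 to 1.42) and its log2 ratio 0.40, and 17.4% of measured genes had a higher one.

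The genes next to each member on its chromosome differed in whether they moved the same way. The comparison used the median log2 ratio of the 20 nearest measured genes, 10 on each side. It was 0.09 for ID1, 0.17 for ID2 and 0.06 for ID3, so that these were 1.24, 1.12 and 1.34 above those medians. The 3 measured genes next to ID2 on one side were higher too, RNF144A at 0.83 and the interferon-induced genes RSAD2 and CMPK2 at 2.39 and 1.41, both above ID2 itself (1.29). For ID4 the median was 0.21 with 16 of 20 neighbours above 0, among them RNF144B at 1.18 and SOX4 at 2.68, and ID4 was 0.48 above it. Around BMPR1A the median was -0.38, 18 of 20 neighbours were below 0, and BMPR1A was -0.17 relative to them. Its next measured neighbours on one side, MMRN2 and SNCG, had log2 ratios of -1.68 and -2.97. Around SMAD6 the median was -0.25 with 15 of 20 below 0, and SMAD6 was 0.03 relative to it. SMAD7 was the exception among the lower genes, with a neighbourhood median of 0.21, 16 of 20 neighbours above 0, and a difference of -0.69 from them. For BMP4 the median was 0.13 and for BAMBI 0.15, leaving 0.54 and 0.25, and for BMP7 it was 0.02. Around BAMBI, 15 of 20 neighbours were above 0. The part of such shared shifts in the values of ID2, ID4, BMPR1A, SMAD6 and BAMBI was not tested.

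**Figure D4:**
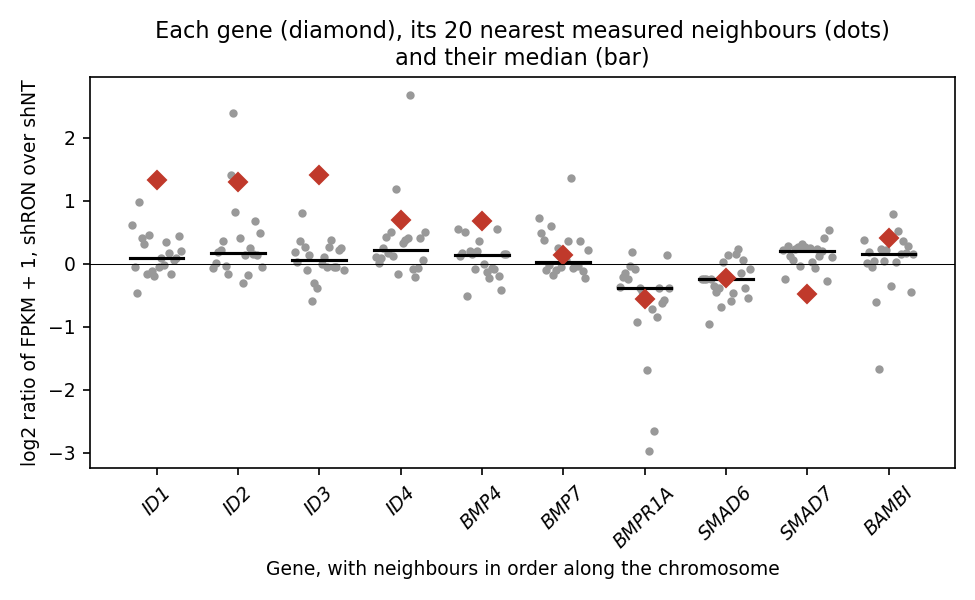
Log2 ratio of FPKM + 1, shRON over shNT, of each of the 10 genes (red diamond), of its 20 nearest measured neighbours in chromosome order (grey dots) and their median (black bar), 1 library per group. ID1, ID2 and ID3 stand 1.12 to 1.34 above the bar, with RSAD2 and CMPK2 higher than ID2 beside it, BMPR1A and SMAD6 lie close to bars at -0.38 and -0.25, and SMAD7 lies below a bar at 0.21.

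The rest of the pathway was described by lists chosen by role, counting a gene at 1.5-fold or more on the FPKM + 1 scale. Among all measured genes 9.95% were higher and 8.84% lower by that size, and the median log2 ratio was 0.04. Of 20 known targets of BMP-activated SMADs, 12 were measured, 4 were higher, 0 were lower and the median was 0.41. The 4 were the ID genes, of which ID4 was measured through shRON only. Of the 12, 7 belong to the 10 genes picked with their values in view. The list holds 5 other measured genes, of which 0 were higher or lower by 1.5-fold, with a median of 0.23, and over all 20 listed genes with no filter the median was 0.02. They were JUNB, an AP-1 subunit (29.6 FPKM in shNT, 43.8 FPKM in shRON), the homeobox genes MSX2 (36.5 and 26.4 FPKM) and DLX3 (6.65 and 7.36 FPKM), KLF10 (8.56 and 11.7 FPKM) and the osteoblast factor RUNX2 (1.56 and 2.01 FPKM).

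Of 8 SMAD genes, 7 were measured, 1 was higher by 1.5-fold and 0 lower (median 0.13). The higher one was SMAD1, a substrate of BMP receptors, at 5.92 FPKM in the control and 9.95 FPKM in shRON (ratio 1.68, interval 1.44 to 1.97, log2 ratio 0.66). It fell short of 1.5-fold with a pseudocount of 5, with the most abundant transcripts only and relative to its neighbours. SMAD5, the other measured substrate, was at 8.95 FPKM in the control and 6.87 FPKM in shRON, and the shared partner SMAD4 at 4.11 and 5.12 FPKM. SMAD9 was at 0.0995 FPKM in the control and 0.106 FPKM in shRON.

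Of 18 receptors and co-receptors of the superfamily, 12 were measured, 1 was higher by 1.5-fold and 2 were lower (median 0.24), and 2 of the 12 were measured through shRON only. The lower genes were TGFBR1, the type I receptor of TGF-beta (12.7 FPKM in shNT, 6.64 FPKM in shRON, log2 ratio -0.85, with a neighbourhood median of -0.40), and RGMB, a BMP co-receptor (8.23 and 4.21 FPKM, -0.82). The higher gene, the TGF-beta co-receptor TGFBR3, was measured through shRON only (0.506 and 1.74 FPKM, 0.86).

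Of 16 extracellular antagonists of BMPs, 5 were measured, 0 were higher by 1.5-fold and 2 lower (median -0.15). Genes near the 1 FPKM limit went both ways. CHRD, which encodes the BMP-binding protein chordin, was at 2.15 FPKM in the control and 0.139 FPKM in shRON, from an estimated 116 and 6 fragments, a ratio of 0.0649 (0.0233 to 0.145). It was measured through shNT only. BMPER, which encodes another chordin-related BMP-binding protein, just missed the limit in shRON, at 0.0557 FPKM in the control and 0.971 FPKM in shRON, from an estimated 3 and 47 fragments, a ratio of 17.4 (5.62 to 87.6). It was chosen for mention after its values were seen. With no filter, or with FPKM scaled to the same sum, it counts as 1 higher gene. The count of lower antagonists was 0 with a pseudocount of 5 or at 5 FPKM or more. FSTL3, a follistatin-like binder of activins, was at 4.66 FPKM in the control and 2.33 FPKM in shRON (log2 ratio -0.76). The most abundant antagonist, NBL1, was at 26.5 and 34.3 FPKM.

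All 24 intracellular regulators of SMADs were measured, 3 were higher by 1.5-fold and 0 lower (median 0.13). The higher genes were the corepressors TGIF2 (8.999 FPKM in shNT, 18.1 FPKM in shRON, log2 ratio 0.94) and TGIF1 (11.0 and 20.6 FPKM, 0.85), and SMURF1, a ubiquitin ligase for BMP-pathway SMADs (3.08 and 5.39 FPKM, 0.65). TOB1, the most abundant, was at 182 FPKM in the control and 141 FPKM in shRON.

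The bHLH proteins that ID proteins bind were also read. Of 15 listed, 4 were measured, 2 were higher by 1.5-fold and 0 lower. TCF3, an E protein and a main partner of ID proteins, was at 14.96 FPKM in the control and 23.4 FPKM in shRON (ratio 1.56, interval 1.44 to 1.70, log2 ratio 0.61). TWIST1, a mesenchymal bHLH factor, was at 1.88 FPKM in the control and 11.0 FPKM in shRON (log2 ratio 2.06). The E protein TCF12 was at 10.5 and 11.3 FPKM, and the E protein TCF4 stayed under 1 FPKM. Summed over TCF3, TCF4 and TCF12, E-protein FPKM was 25.5 in shNT and 35.0 in shRON. The sum of the 4 ID genes was 1.20 times the E-protein sum in shNT and 2.34 times in shRON. These are sums of RNA, the ID genes were picked with their values in view, and protein was not measured.

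**Figure D5:**
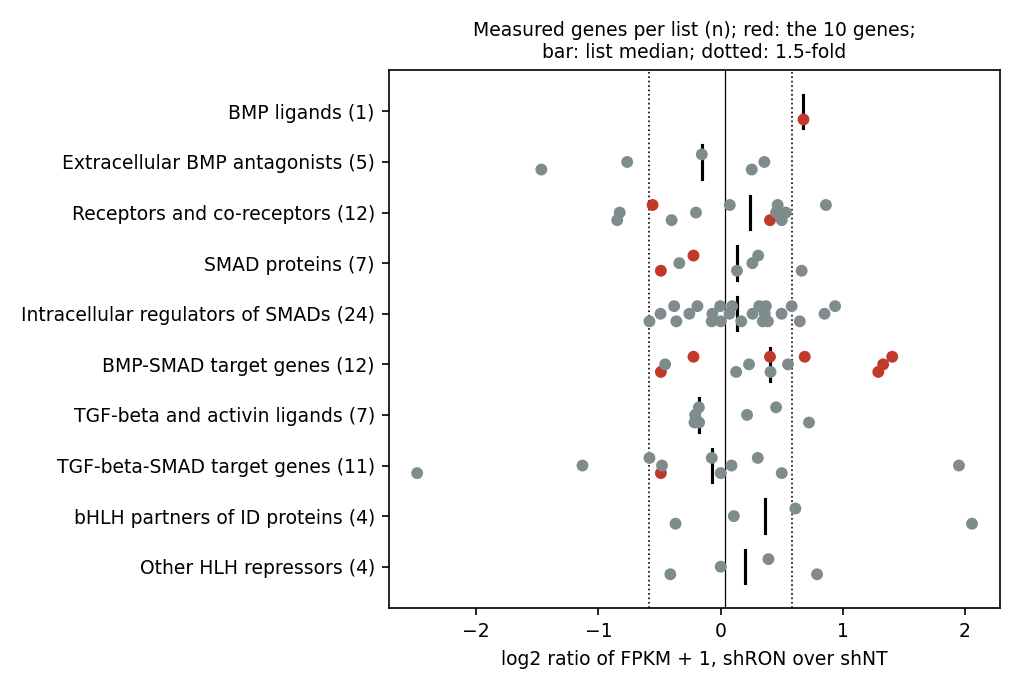
Log2 ratio of FPKM + 1, shRON over shNT, of each measured gene in each list (number measured in brackets), with the 10 genes in red, the list median as a bar, the median of all measured genes as a thin line and 1.5-fold as dotted lines. In the list of BMP-SMAD targets the points beyond the upper line are the 4 ID genes, from 0.69 to 1.40.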

How the data were processed

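RNA of 2 libraries was analysed, grouped by the treatment label. The name of the control table describes wild-type cells, but its label says non-targeting hairpin, which was followed. The authors deposited Cufflinks transcript tables with FPKM and coverage per RefSeq transcript, per the file headers. The FPKM was read as fragments scaled to transcript length and library total, with no stated scaling between libraries, and the deposited coverage signal as mean read depth. The build is hg19 and DESeq is named, without a role, per the submitters' processing notes. The sources used here name no aligner. Transcripts were joined by identifier, FPKM summed per gene, and small RNA genes left out (Python 3.11.15, pandas 2.3.3, scipy 1.17.1). Ratios are log2 of FPKM + 1. Fragments were estimated as coverage times length over 238 bases per read pair, the median of products between 150 and 325 bases in single-transcript genes. Of the low estimates, 26.6% (shNT) and 27% (shRON) were whole to a tolerance of 0.1, where spacing alone gives 20%. Read counts could therefore not be recovered, and the 2-fold and 1.5-fold counts rest on fold size alone. Statements on overlap, or on whether a difference was detectable, rest on intervals from these estimated fragments and are approximate. Intervals are 95% Clopper-Pearson intervals of the share of both libraries' fragments. All 18 member transcripts had status OK in both tables. The table starts are given 1-based, and strands are from GENCODE. The scripts were tested on simulated data. Named genes were those 1.5-fold apart, up to 6 per list, and the most abundant of a list. Other genes are named to show a receptor, SMAD, ligand or target beside a member and were chosen after their values were seen. The 10 genes, the lists, the motifs and the 2-fold and 1.5-fold rules were chosen with earlier results of these data known.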

Additional observations from a re-analysis of the deposited data

How the results depend on the processing

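The count of 3 members at least 2-fold higher was 3 in 8 of 11 alternative settings. It was 4 with a pseudocount of 0.1, through ID4 (1.17), and 4 with the most abundant transcript only, through BMP4 (1.18 against 0.67). It was 2 with a pseudocount of 5, where ID1 was at 0.98 and ID3 at 1.16. The count of members at least 2-fold lower was 0 in all 11. ID1, ID2 and ID3 stayed above 0 throughout, at 0.98 to 1.45, 1.09 to 1.35 and 1.16 to 1.48. SMAD7 stayed below 0, at -0.69 to -0.24. SMAD6 was at 0.03 and BMPR1A at -0.17 once the median of the 20 nearest genes was subtracted, and BMP7 was at -0.07 with the trend removed. Counts and medians of small lists moved with the filter, pseudocount, transcripts and scaling. At 1.5-fold, SMAD genes higher (1) became 0 and SMAD genes lower (0) became 1 in 3 settings each. Antagonists lower (2) became 0 in 2 settings, receptors higher (1) ranged from 0 to 3 and receptors lower (2) from 1 to 3. The higher bHLH partners (2) became 1 in 2 settings, and BMP ligands higher (1), which is BMP4, became 0 in 2. The median log2 ratio of the BMP antagonists, -0.15 in the main setting, was 0.11 with FPKM scaled to the same sum. It was 0.26 at 5 FPKM or more. At 5 FPKM or more the median of the receptors was -0.20, and with no filter that of the BMP-SMAD targets was 0.02. Scaling to the same sum shifted the median of all measured genes by 0.05. The filter on the mean of both libraries was added after seeing the data. No paired analysis was possible because each group holds 1 library. Depth limits BMP7, SMAD6 and ID4, with 10 to 69 estimated fragments per library.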

Other observations

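Ligands and targets of the TGF-beta branch of the superfamily, and other helix-loop-helix repressors, are given here with their values. Of 17 TGF-beta and activin ligands, 7 were measured and 1 was higher by 1.5-fold, TGFB2, which was measured through shRON only (0.597 FPKM in the control and 1.64 FPKM in shRON). The most abundant, the activin subunit gene INHBB, was at 35.4 and 41.3 FPKM. Of 17 targets of TGF-beta-activated SMADs, 11 were measured, 1 was higher and 2 were lower (median -0.07). FN1, which encodes fibronectin, was at 2.86 FPKM in the control and 13.9 FPKM in shRON, THBS1, a matrix glycoprotein gene, at 61.8 and 10.2 FPKM, and CDKN1A, which encodes the cell cycle inhibitor p21, at 33.5 and 14.8 FPKM. Of 12 other helix-loop-helix repressor genes, 4 were measured and 1 was higher by 1.5-fold, HES6 (6.84 FPKM in the control and 12.6 FPKM in shRON), while HES1, the Notch target, was at 25.9 and 34.3 FPKM and BHLHE40 at 88.2 and 88.3 FPKM.

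The measured genes nearest to the ID genes by their levels in both libraries were STEAP2 (6.12 FPKM in the control and 16.7 FPKM in shRON), EXT1 (6.001 and 16.3 FPKM) and RSU1 (6.40 and 16.8 FPKM) for ID1. For ID2 they were DEPDC6 (12.4 and 31.8 FPKM), NCRNA00173 (12.2 and 29.5 FPKM) and SPNS2 (14.1 and 29.9 FPKM). For ID3 they were CHEK2 (11.1 and 27.7 FPKM), PRKD2 (10.4 and 27.5 FPKM) and NCRNA00173. Likeness was the distance in log2(FPKM + 1) over 2 libraries, so it describes levels only.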
